A study of Mus musculus with 10 samples.

Results

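The 6 genes of the platelet-derived growth factor (PDGF) system, the ligands *Pdgfa*, *Pdgfb*, *Pdgfc* and *Pdgfd* and the receptors *Pdgfra* and *Pdgfrb*, were followed in the kidney cortex of mice with aristolochic acid nephropathy (AAN). They were chosen by name and not ranked by their values, though with earlier results of these data known. They are 6 of the 21792 genes with a value in each mouse. The data are RNA-seq values of 10 male wild-type C57BL/6 mice, aged 8 weeks when the model was induced and all collected on day 28 after it. They were 4 sham mice that received PBS and 6 AAN mice that received a single intraperitoneal dose of aristolochic acid at 5 mg/kg. Aristolochic acid is a plant toxin that damages the proximal tubule, and the model is used to study the fibrosis that follows. No genotype was altered in any mouse, each mouse has its own library, no mice were pooled, and only males, 1 dose and 1 time point are represented. The comparison answers how expression in the fibrotic cortex differs from that in the sham cortex.

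PDGF ligands are secreted dimers. PDGF-A and PDGF-B are cut by furin-type proteases inside the cell, whereas PDGF-C and PDGF-D carry a CUB domain that is removed outside the cell by plasminogen activators and other serine proteases. Their receptors are tyrosine kinases: PDGFR-α binds the A, B and C chains, PDGFR-β binds the B and D chains, and in the kidney both are known as receptors of mesenchymal cells, that is of mesangial cells, pericytes and interstitial fibroblasts.

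All 6 genes were higher in AAN mice. The fitted folds were 4.69 for the receptor *Pdgfra*, 4.65 for the ligand *Pdgfb*, 3.43 to 3.44 for the receptor *Pdgfrb* and the ligand *Pdgfa*, 3.11 for the ligand *Pdgfd* and 2.25 for the ligand *Pdgfc*, and their order is not settled by the tests below. *Pdgfc* was the only one of the 6 whose sham and AAN values overlapped. A gene was called where its adjusted p did not exceed 0.05 and its fold reached 2, and *Pdgfc* was no longer called in 11 of 21 alternative settings (below). By this rule 35.8% of the 17129 genes tested were called higher and 3.43% lower (39.2% in either direction), and the median log2 fold change of all genes was 0.75, so each change is given below also relative to that median. Of the genes called, 91.2% were higher as deposited, 63.9% after rescaling by the median of ratios and 54.4% after quantile normalization, which move the median of all genes to 0.05 and -0.12.

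Fold changes are on the scale of log2(FPKM + 0.1), where FPKM is the number of fragments per kilobase of transcript, scaled to the mapped fragments of the library. The libraries held 15.9 to 17.5 M fragments in sham and 13.4 to 16.5 M in AAN mice, as recovered from the steps between low values. The share of mitochondrial genes in the summed FPKM was 39.5% to 61.4% in sham and 21.4% to 55.0% in AAN mice, and 16690 to 17639 genes were above 0 in sham and 19158 to 19636 in AAN mice. Markers of the labelled tissue were present in every mouse: the 8 proximal tubule genes summed to 1949 to 3882 FPKM in sham and 529 to 2000 FPKM in AAN mice, and the 6 podocyte genes to 43.3 to 84.0 and 48.2 to 127 FPKM. In whole cortex, more cells of a type and more RNA per cell cannot be told apart.

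Sequences before start sites of these genes are shown as a description, and their part in the rises was not tested. RefSeq start-site windows on GRCm38.p6, of 250 bases before and 50 after the start, were matched for 4 of the 6 genes. The bases before the start are printed on the strand of the gene, up to the first base inside an annotated exon of the gene, in lower case with TATAAA in capitals. For *Pdgfa*, which has 2 windows, the one with more annotated starts within 100 bases was taken, and 157 bases of it lie before the exons that begin there. Since other transcripts of *Pdgfa* start further upstream, this stretch is inside the annotated gene, and it overlaps the opposite-strand gene *6330403L08Rik*.
*Pdgfa*, chr5:138995038-138995194, minus strand: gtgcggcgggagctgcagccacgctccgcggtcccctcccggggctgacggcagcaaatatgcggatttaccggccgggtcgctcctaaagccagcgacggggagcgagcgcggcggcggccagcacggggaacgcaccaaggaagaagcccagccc
*Pdgfc*, chr3:81036166-81036415, plus strand: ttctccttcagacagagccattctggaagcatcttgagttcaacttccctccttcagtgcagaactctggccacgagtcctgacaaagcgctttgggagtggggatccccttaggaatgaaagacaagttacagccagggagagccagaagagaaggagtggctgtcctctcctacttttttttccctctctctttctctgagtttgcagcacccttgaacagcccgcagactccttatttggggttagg
*Pdgfd*, chr9:6168236-6168485, plus strand: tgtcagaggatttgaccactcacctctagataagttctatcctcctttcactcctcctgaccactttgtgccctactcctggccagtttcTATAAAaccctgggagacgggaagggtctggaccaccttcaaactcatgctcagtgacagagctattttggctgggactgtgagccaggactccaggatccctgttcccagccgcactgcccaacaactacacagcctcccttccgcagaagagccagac
*Pdgfra*, chr5:75152001-75152250, plus strand: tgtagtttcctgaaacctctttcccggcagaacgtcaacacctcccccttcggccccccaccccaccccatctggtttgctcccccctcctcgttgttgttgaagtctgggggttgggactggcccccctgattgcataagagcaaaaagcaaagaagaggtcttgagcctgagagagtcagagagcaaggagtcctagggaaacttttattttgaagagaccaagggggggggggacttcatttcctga

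The windows differed in composition. GC content over the 300 bases was 73.3% for *Pdgfa*, 56.7% for *Pdgfd*, 55.0% for *Pdgfc* and 51.0% for *Pdgfra*, against a median of 52.7% over all 32851 windows. On both strands of each window 5 short motifs were searched: the TATA box motif TATAAA, the GC box motif GGGCGG, the CCAAT box, the AP-1 motif TGACTCA, and the EGR motif GCGTGGGCG, which can share letters with a GC box. TATAAA was found 1 time in the *Pdgfd* window, 160 bases before the start, and 13.6% of all windows hold it. GGGCGG was found 2 times in the *Pdgfa* window, on the other strand and within an annotated exon, and 35.7% of all windows hold it. The CCAAT box (held by 37.4% of all windows), the AP-1 motif (5.2%) and the EGR motif (0.612%) were not found in these 4 windows. The letters are a description of these windows only.

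Among the ligands, *Pdgfb* had the highest level. *Pdgfb* (ENSMUSG00000000489, chromosome 15, 79995874 to 80014977, minus strand, GRCm38) encodes the B chain, which binds both receptors and is known to draw pericytes to vessels. It was at 9.14, 7.46, 9.76 and 8.46 FPKM in the sham mice B607, B634, B636 and H249, and at 27.5 (lowest), 43.3 (median) and 54.2 FPKM (highest) in the AAN mice. The groups did not overlap, and the lowest AAN mouse, B614, was well above the highest sham mouse. The mean rose from 8.71 ± 0.986 (SD, n = 4) to 41.9 ± 10.7 FPKM (SD, n = 6), and the fitted log2 difference was 2.22 with a standard error of 0.21 (limma, adjusted p = 3.17e-06), which is 1.47 above the median of all genes.

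*Pdgfa* (ENSMUSG00000025856, chromosome 5, 138976014 to 138997370, minus strand) encodes the A chain, which signals through PDGFR-α. It was at 1.53, 1.87, 1.24 and 1.55 FPKM in the sham mice B607, B634, B636 and H249, and at 2.94 (lowest), 5.95 (median) and 7.05 FPKM (highest) in the AAN mice. The groups did not overlap, but the AAN mouse B614 stood between the sham mice and the other AAN mice, which lay at 5.56 to 7.05 FPKM. The fitted log2 difference was 1.78 with a standard error of 0.24 (adjusted p = 5.94e-05), 1.04 above the median of all genes, and it was 1.96 without B614. A gene on the opposite strand, *6330403L08Rik*, overlaps *Pdgfa*. It was at 0.120 to 0.330 FPKM in sham and 0.323 to 0.655 FPKM in AAN mice. Since the use of strand in the counting was not stated, reads from where it overlaps *Pdgfa* may be assigned to either gene.

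*Pdgfd* (ENSMUSG00000032006, chromosome 9, 6168584 to 6378850, plus strand) encodes the D chain, a ligand of PDGFR-β. It was the ligand with the least spread among sham mice, at 1.77, 1.99, 1.65 and 1.77 FPKM in B607, B634, B636 and H249. In the AAN mice it was at 4.25 (lowest), 5.99 (median) and 6.90 FPKM (highest). The groups did not overlap. The fitted log2 difference was 1.64 with a standard error of 0.17 (adjusted p = 5.96e-06), 0.89 above the median of all genes.

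*Pdgfc* (ENSMUSG00000028019, chromosome 3, 81036416 to 81214040, plus strand) encodes the C chain, a ligand of PDGFR-α. It was at 2.05, 0.324, 0.682 and 1.34 FPKM in the sham mice B607, B634, B636 and H249, and at 1.13 (lowest), 2.39 (median) and 3.87 FPKM (highest) in the AAN mice. The groups overlapped: 4 of the 6 AAN mice lay above the highest sham mouse, and the other two, B630 and B639, lay below both B607 and H249. The log2 fold change of 1.17 (standard error 0.46) was past the limit with an adjusted p of 0.0425, and it is 0.42 above the median of all genes. The call rests on single mice: it was lost without the sham mice B634 (0.75, adjusted p = 0.151) or B636 (1.05, adjusted p = 0.105) and without any of the AAN mice A483, B614, B642 or B666 (1.01 to 1.15, adjusted p of 0.0692 to 0.0809). A gene on the opposite strand, *Gm16000*, overlaps *Pdgfc* and was listed at 0 in every sham mouse and at up to 0.144 FPKM in AAN mice. Reads from where it overlaps *Pdgfc* have the same limit.

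**Figure D1:**
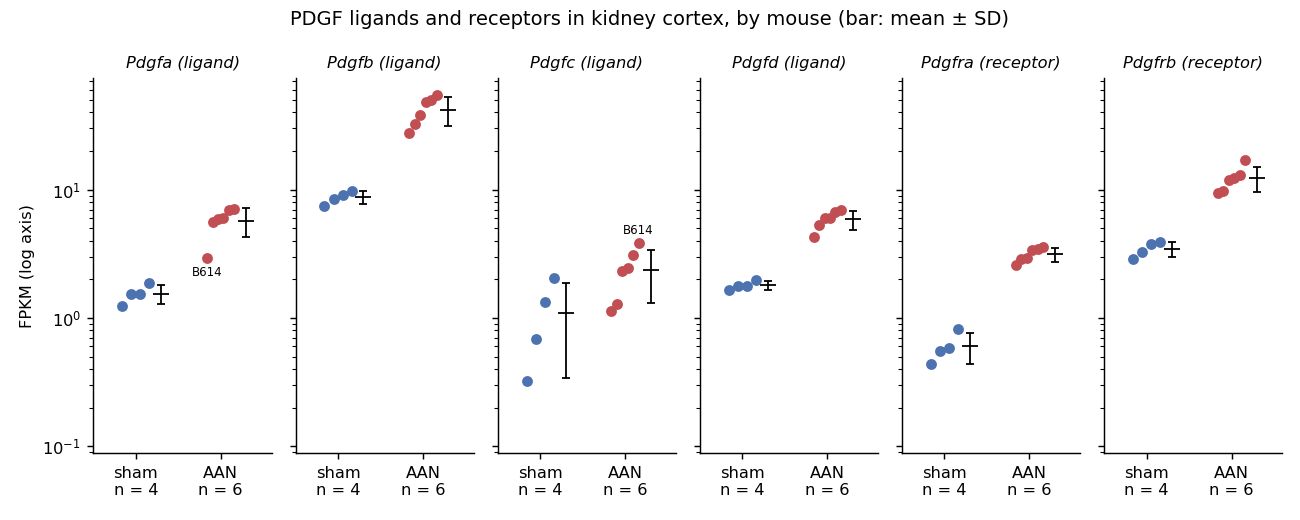
FPKM (log axis) of the 4 PDGF ligands and both receptors in each of the 4 sham (blue) and 6 AAN (red) mice, with the mean ± SD at the right of each group. The groups are apart for 5 genes and overlap for *Pdgfc*, and the AAN mouse B614 was lowest for *Pdgfa* (2.94 FPKM) and highest for *Pdgfc* (3.87 FPKM).

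Both receptors were higher in AAN mice with no overlap between the groups. *Pdgfra* (ENSMUSG00000029231, chromosome 5, 75152292 to 75198215, plus strand) encodes PDGFR-α, which is widely used as a marker of fibroblasts. It was at 0.584, 0.826, 0.556 and 0.438 FPKM in the sham mice B607, B634, B636 and H249, the lowest mean level of the 6 genes, and at 2.61 (lowest), 3.15 (median) and 3.60 FPKM (highest) in the AAN mice. Every AAN mouse was therefore above every sham mouse, with a lower relative spread in AAN (SD 12.5% of the mean) than in sham mice (27.1%). The fitted log2 difference was 2.23 with a standard error of 0.19 (adjusted p = 1.45e-06), 1.48 above the median of all genes. The opposite-strand gene *Gm42803* overlaps *Pdgfra* and reached at most 0.135 FPKM among sham and 0.286 FPKM among AAN mice, and the same limit holds for it.

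*Pdgfrb* (ENSMUSG00000024620, chromosome 18, 61045150 to 61085061, plus strand) encodes PDGFR-β, the receptor of pericytes and mesangial cells. It was at 3.25, 3.89, 2.88 and 3.80 FPKM in the sham mice B607, B634, B636 and H249, and at 9.40 (lowest), 12.1 (median) and 17.0 FPKM (highest) in the AAN mice. The AAN mouse B666 had the highest value and B614 the lowest. The fitted log2 difference was 1.78 with a standard error of 0.19 (adjusted p = 7.58e-06), 1.03 above the median of all genes.

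In all, 6 of 6 genes were called higher, where 35.8% of all genes tested were, and 5 of 6 had every AAN mouse above every sham mouse, where 40.3% of all genes did. Their fold changes ranked between the 69.4th (*Pdgfc*) and the 88.5th percentile (*Pdgfra*) of all genes, so many genes rose more. Rescaling changed the sizes but not the directions. After the median of ratios 4 of the 6 were called, where 18.9% of all genes were: the log2 fold change was 1.53 for *Pdgfra*, 1.46 for *Pdgfb*, 1.05 for *Pdgfa* and 1.03 for *Pdgfrb*, while *Pdgfd*, at 0.90, was under the fold limit and *Pdgfc*, at 0.48, had an adjusted p of 0.365. After quantile normalization 3 were called, where 14.4% of all genes were: *Pdgfb* (1.74), *Pdgfra* (1.08) and *Pdgfrb* (1.03), with *Pdgfa* (0.84) and *Pdgfd* (0.73) under the fold limit and *Pdgfc* at 0.087 (adjusted p = 0.874).

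**Figure D2:**
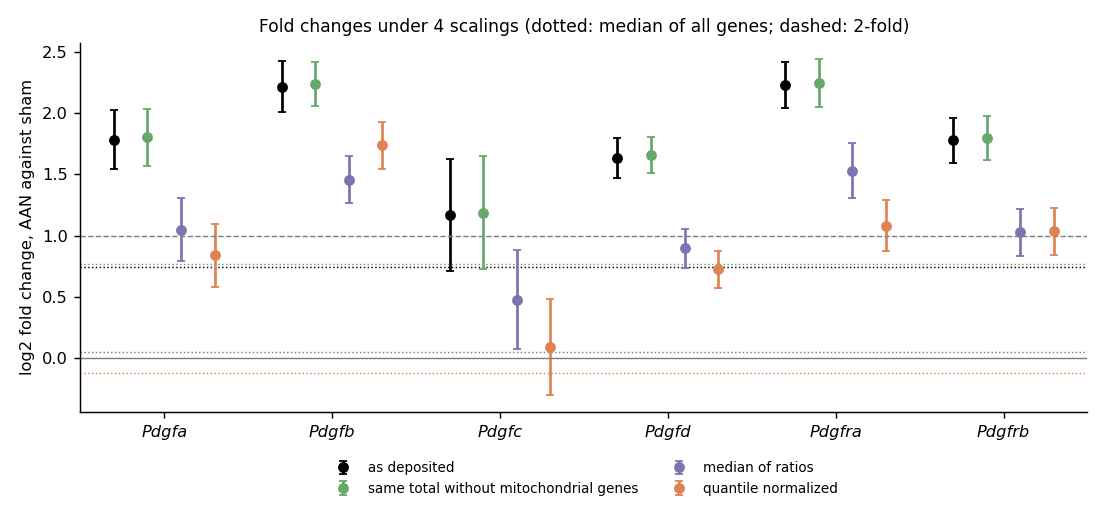
Log2 fold change of the 6 genes (AAN against sham, points with standard error) with the FPKM as deposited and after 3 rescalings; dotted lines mark the median of all genes under each scaling (0.75 as deposited, -0.12 after quantile normalization) and the dashed line the fold limit. The points of *Pdgfb*, *Pdgfra* and *Pdgfrb* stay above the dashed line under each scaling shown, and those of *Pdgfc* approach 0 after quantile normalization (0.087).

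The level of *Pdgfc* followed another order among the mice than the other 5 genes. Its SD was 69.3% of the mean in sham and 44.3% in AAN mice, against 7.80% to 27.1% and 12.5% to 26.0% for the other genes. In the sham mice its order, B607, H249, B636 and B634, was the reverse of that of the mitochondrial share of the library, which was 39.5%, 46.2%, 54.0% and 61.4%. The means of the endothelial, leukocyte and proximal tubule marker lists were among those with the same order in sham mice. That of the fibroblast list had the opposite order, from 0.038 in B607 to 0.364 in B634 on the log2 scale. The order was therefore not particular to *Pdgfc*. In the AAN mice the lowest values, 1.13 FPKM in B630 and 1.29 FPKM in B639, were those of the libraries with the highest shares, 55.0% and 44.8%, and the other four lay at 2.32 to 3.87 FPKM with shares of 21.4% to 34.1%. With each library rescaled to the same FPKM total without mitochondrial genes, the log2 fold change was 1.19 (limma, adjusted p = 0.041). The factors of that rescaling were only 0.92 (B630) to 1.11 (B642), so it could move the values little. The part of the mitochondrial share in the spread of *Pdgfc* was not tested.

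**Figure D3:**
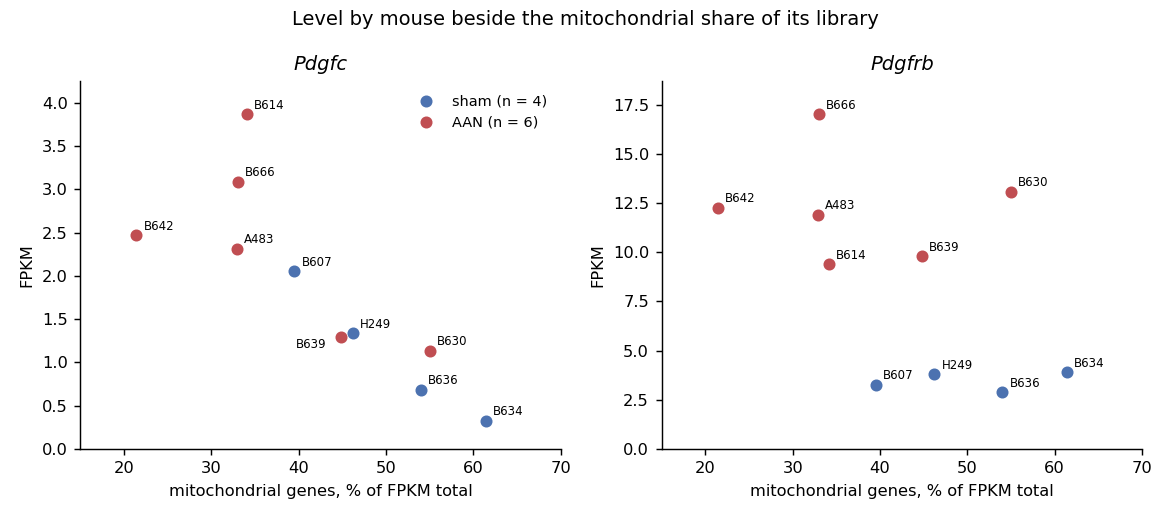
FPKM of *Pdgfc* (left) and *Pdgfrb* (right) in each mouse against the share of the FPKM total taken by mitochondrial genes in its library (%), sham in blue and AAN in red, labelled by mouse. *Pdgfc* was at 2.47 FPKM at the lowest share (B642, 21.4%) and at 0.324 FPKM at the highest (B634, 61.4%), with the groups mixed in between, while the AAN mice lie above the sham mice for *Pdgfrb* at low and high shares alike.

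The precision differs between the genes. Since fragments of a gene with several transcripts are shared between them, only an upper limit of the fragments behind a value can be given: at most 26.2 to 183.1 for *Pdgfc*, 63.9 to 92.6 for *Pdgfa*, 85.8 to 99.4 for *Pdgfd*, 72.3 to 131.3 for *Pdgfra*, 259.3 to 342.6 for *Pdgfrb* and 492.0 to 668.6 for *Pdgfb* in the sham mice. The lowest of these limits is that of *Pdgfc* in B634. These limits cover counting error only.

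Per length, the order of the mean levels in sham mice was *Pdgfb*, *Pdgfrb*, *Pdgfd*, *Pdgfa*, *Pdgfc* and *Pdgfra*. In AAN mice it was the same but for *Pdgfra*, which stood above *Pdgfc*. In both groups *Pdgfb* was above *Pdgfrb* and *Pdgfrb* above *Pdgfd* in every mouse, with separate ranges, whereas the ranges of the lower neighbours overlapped. *Pdgfd* was above *Pdgfa* in 4 of 4 sham and 3 of 6 AAN mice, and *Pdgfra* was above *Pdgfc* in 1 of 4 sham and 5 of 6 AAN mice. The 4 ligands summed to 11.6 to 14.5 FPKM in sham and 39.6 to 70.5 FPKM in AAN mice, and both receptors to 3.43 to 4.72 and 12.3 to 20.6 FPKM. *Pdgfb* made up 63.0% to 73.2% of the ligand sum in sham and 69.4% to 77.9% in AAN mice, and *Pdgfra* 10.3% to 17.5% of the receptor sum in sham and 17.5% to 23.7% in AAN mice.

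Whether the 6 genes rose by different amounts was asked within each mouse, as the difference of the log2 values of a pair of genes, tested by exact permutation (two-sided, 210 splits, smallest possible p = 0.00476). Of the 15 pairs 0 passed the limit after adjustment over the 15, and 3 had an unadjusted p under 0.05. With that smallest p, a lone pair could not pass after adjustment over the 15, even with the groups fully apart. The lack of a pass therefore does not show that the rises were equal. *Pdgfb* minus *Pdgfd* was 0.58 higher in AAN mice on the log2 scale (standard error 0.17, exact p = 0.0143, adjusted p = 0.143, above the highest sham mouse in 5 of 6 AAN mice). *Pdgfd* minus *Pdgfra* changed by -0.59 (standard error 0.20, exact p = 0.019, adjusted p = 0.143, below the lowest sham mouse in 5 of 6 AAN mice). *Pdgfra* minus *Pdgfrb* was 0.45 higher (standard error 0.19, exact p = 0.0286, adjusted p = 0.143, above the highest sham mouse in 4 of 6 AAN mice), but it was -0.18 with a pseudocount of 1, which is above the sham level of *Pdgfra*. No rank of the rises is therefore given.

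Genes of other cells moved in the same comparison. The fibroblast list (8 genes, among them *Col1a1* and *Dcn*) had 8 of 8 genes called higher with a median log2 fold change of 2.99, and it summed to 13.8 to 19.1 FPKM in sham, where *Lum* was at 0 in at least 1 mouse, and 116 to 255 FPKM in AAN mice. The myofibroblast list had 4 of 5 called higher (median 2.07; summed 28.6 to 50.8 and 61.8 to 252 FPKM). The pericyte and mesangial list had 4 of 8 called higher (*Rgs5*, *Cspg4*, *Mcam* and *Notch3*, median 0.79; summed 35.1 to 128 and 68.8 to 144 FPKM), but 0 after the median of ratios and after quantile normalization, where 1 and 2 of its genes were called lower. The endothelial list had 0 of 8 called (median 0.29; summed 43.4 to 62.7 and 69.1 to 78.6 FPKM), but 3 were higher with the same FPKM total and 1 lower after the median of ratios. Of the platelet list, whose cells are a known store of PDGF, only *Pf4* was called of 5 (median 0.55, summed 0.852 to 3.96 and 4.79 to 25.4 FPKM). The mean of *Pf4* went from 0.735 to 16.8 FPKM. *Itga2b* (-0.31), *Gp9* (-0.49), *Ppbp* (0.55) and *Gp1bb* (0.90) were not called, so the summed rise is not one of the list as a whole. In sham mice *Gp9* and *Ppbp* were at 0 in at least 1 mouse.

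The macrophage list rose most among the non-tubular lists, with 7 of 7 genes called higher (median 4.77; summed 20.4 to 30.6 FPKM in sham and 323 to 1164 FPKM in AAN mice), beside 6 of 6 leukocyte genes (median 4.35; summed 7.65 to 14.0 and 138 to 419 FPKM). Of the tubular lists, 7 of 7 injured tubule genes were called higher (median 5.49; summed 146 to 241 and 1419 to 3609 FPKM) and 6 of 8 proximal tubule genes lower (median -1.42). The thick limb list had 0 of 4 called (median -0.22; summed 443 to 1637 and 198 to 1930 FPKM), but 2 lower after the median of ratios (median -0.98). The list of distal tubule and collecting duct genes had 0 of 6 called (median -0.42; summed 292 to 667 and 177 to 860 FPKM), but 3 lower after the median of ratios (median -1.18) and 1 lower after quantile normalization. Of the podocyte list 1 of 6 was called higher (*Synpo*, median 0.57), and of the adipose and urothelium list 2 of 5 genes were tested and 0 called (median 0.77). After the median of ratios the medians of the endothelial (-0.46), platelet (-0.03) and podocyte (-0.11) lists were below 0, while those of the fibroblast (2.33), myofibroblast (1.77) and macrophage (4.03) lists remained above it. The part of each of these cell types in the rise of the PDGF genes was not tested.

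**Figure D4:**
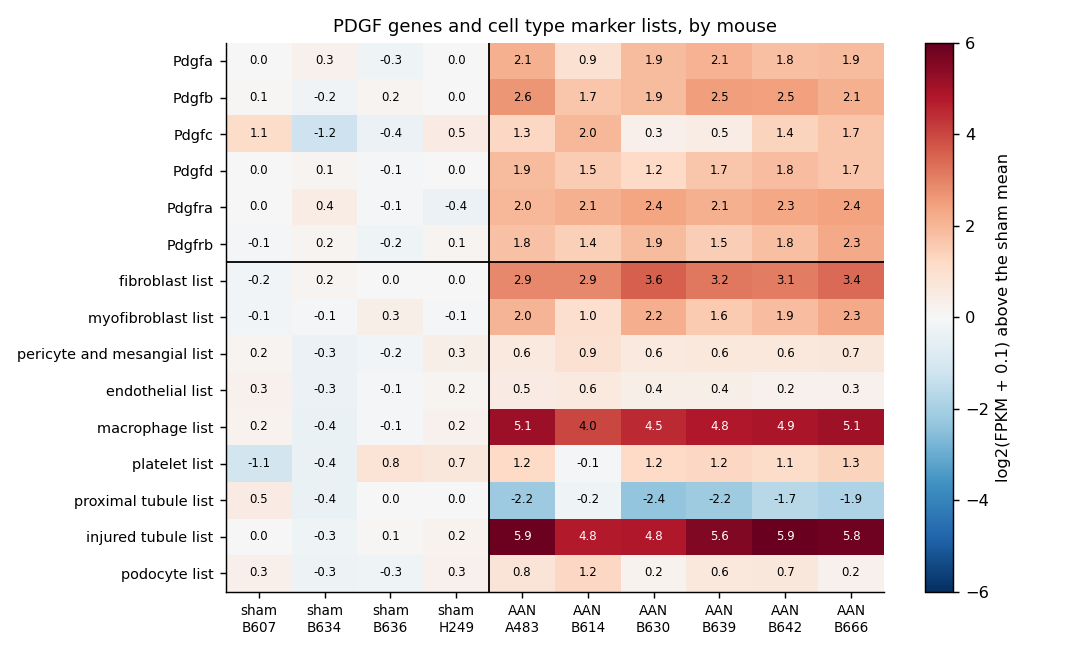
Log2(FPKM + 0.1) above the mean of the sham mice for the 6 PDGF genes (upper rows) and for the mean of 9 marker lists (lower rows), in each of the 4 sham and 6 AAN mice; red is above and blue below the sham mean. The AAN mice lie 2.87 to 3.57 above it for the fibroblast list and 0.90 to 2.63 for *Pdgfa*, *Pdgfb*, *Pdgfd*, *Pdgfra* and *Pdgfrb*, and B614 is nearest to it for the proximal tubule list (-0.25).

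The PDGF genes rose less than the mean of the fibroblast list of the same mouse. Because that list was chosen with earlier results of these data known, the p-values below describe these mice and are not independent support. Single genes of that list had log2 fold changes of 2.19 (*Fbln1*) to 4.41 (*Col1a1*). Its lowest was thus no higher than *Pdgfra* (2.23) and *Pdgfb* (2.22), and the comparison holds for the mean alone. As a difference from the mean log2 value of that list, *Pdgfra* changed by -0.93 (standard error 0.16) and *Pdgfrb* by -1.38 (standard error 0.14), with all 6 AAN mice below all sham mice for each (exact p = 0.00476, the smallest possible; adjusted p = 0.00714 over the 6 differences). The ligands *Pdgfa* (-1.38, standard error 0.21) and *Pdgfd* (-1.53, standard error 0.20) gave the same count of mice and the same exact and adjusted p. For *Pdgfb* the change was -0.94 (standard error 0.25, exact p = 0.019, adjusted p = 0.019) and for *Pdgfc* -1.99 (standard error 0.67, exact p = 0.00952, adjusted p = 0.0114), with 5 of 6 AAN mice below all sham mice for both. The change of *Pdgfb* was no longer past the limit with a pseudocount of 1 (-0.26, adjusted p = 0.343) or after quantile normalization (-0.56, adjusted p = 0.114), and that of *Pdgfc* without the sham mouse B607 (-1.57, adjusted p = 0.0595) or with B tags alone (-1.90, adjusted p = 0.0714).

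Of 43 further genes in 6 lists, 32 (74.4%) were called higher and 0 lower, with a median log2 fold change of 1.62. Over all genes these values were 35.8%, 3.43% and 0.75. The lists were chosen with earlier results of these data known. Beside genes of the PDGF pathway they hold early response genes that answer to many signals (8 of 9 called higher). They also hold related receptors of other ligands, with those ligands (5 of 6 called higher). The share of 74.4% is therefore not a measure of PDGF signalling. After the median of ratios 21 of the 43 genes were called higher and after quantile normalization 19, and none lower.

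The proteases that process the ligands divided. *Plau* and *Plat*, the plasminogen activators, and *St14*, the membrane protease matriptase, were called higher, with *Plau* from 64.4 ± 23.3 to 297 ± 77.8 FPKM (log2 fold change 2.23), *Plat* from 23.4 ± 5.37 to 94.4 ± 27.8 FPKM (1.98) and *St14* from 8.84 ± 2.12 to 22.9 ± 1.83 FPKM (1.39; SD, n = 4 and 6). All 3 are reported to act on PDGF-C or PDGF-D. *Furin*, the convertase of the A and B chains, was at 6.70 to 18.0 FPKM in sham and 7.68 to 14.5 FPKM in AAN mice (-0.06, limma, adjusted p = 0.848), and *Pcsk5*, a related convertase, at 1.22 to 3.89 and 1.81 to 3.48 FPKM (0.23, adjusted p = 0.486). *Furin* was above 0 with the same total and *Pcsk5* below 0 after the median of ratios and quantile normalization, so neither has a settled direction. The list had 2 genes called higher after either of these rescalings.

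All 5 binding partners were called higher, and 4 of them after the median of ratios or quantile normalization. The largest rises were those of *Thbs1*, the matrix protein thrombospondin 1, from 6.16 ± 2.78 to 36.9 ± 11.9 FPKM (log2 fold change 2.59), and of *Lrp1*, an endocytic receptor that associates with PDGFR-β, from 1.51 ± 0.311 to 8.74 ± 1.76 FPKM (2.45). The other three are named after their values were seen: *Sparc*, a matrix protein that binds the B chain (2.41), the co-receptor *Nrp1* (1.17), and *Pdgfrl*, a receptor-like gene that was listed at 0 in 3 of 4 sham mice and reached 0.165 to 0.796 FPKM in AAN mice, for which no fold is given.

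The cytoplasmic relay moved least. Of 12 genes 6 were called higher, and the median of 0.96 was near that of all genes (0.75). The adaptor *Shc1* went from 2.51 ± 1.46 to 8.28 ± 2.53 FPKM (log2 fold change 1.77) and *Pik3r1*, a regulatory subunit of PI3-kinase, from 2.38 ± 0.491 to 6.60 ± 0.879 FPKM (1.44). *Grb2* (0.80), *Sos1* (0.62), *Pik3ca* (0.52), *Src* (0.88), *Ptpn11* (0.59) and *Crk* (0.69) were under the fold limit. After the median of ratios 1 of the 12 was called and after quantile normalization 0, and *Sos1*, *Pik3ca* and *Ptpn11* were then below 0, as was *Crk* after the median of ratios.

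Of 6 genes that restrain receptor signalling 5 were called higher, 2 after the median of ratios and 1 after quantile normalization. *Socs1*, an inhibitor of cytokine receptor signalling, went from 0.467 ± 0.328 to 6.60 ± 2.21 FPKM (log2 fold change 3.76) and *Cbl*, a ubiquitin ligase that marks activated receptors for degradation, from 1.22 ± 0.761 to 3.87 ± 0.462 FPKM (1.79). *Ptprj*, a receptor phosphatase, spread from 0.453 to 4.74 FPKM in sham and from 0.657 to 11.0 FPKM in AAN mice (1.01, adjusted p = 0.272).

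Early response genes, which PDGF is known to induce in cultured fibroblasts but which respond to many other signals, rose most of the 6 lists. Of 9 genes 8 were called higher, and the count was 8 also after the median of ratios and after quantile normalization. The chemokine *Ccl2* went from 0.197 ± 0.0248 to 27.9 ± 13.1 FPKM (log2 fold change 6.38) and *Cxcl1* from 0.0594 ± 0.0279 to 10.2 ± 4.51 FPKM (5.84), where the fold of *Cxcl1* depends on the pseudocount because its sham level is below it. *Ier3* was at 17.4 to 31.1 FPKM in sham and 26.7 to 74.1 FPKM in AAN mice (0.90, adjusted p = 0.0155), under the fold limit.

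The receptors closest to the PDGF receptors in structure, and their ligands, gave 5 of 6 called higher, and 4 after the median of ratios or quantile normalization. *Csf1r*, the receptor of macrophages, went from 4.91 ± 1.48 to 58.1 ± 15.8 FPKM (log2 fold change 3.54) and its ligand *Csf1* from 1.32 ± 0.297 to 13.3 ± 4.32 FPKM (3.17). The macrophage list rose with them (above). *Kitl*, the ligand of *Kit*, was at 1.50 to 1.99 FPKM in sham and 2.40 to 5.11 FPKM in AAN mice (0.93, adjusted p = 0.00466), under the fold limit, and its value was below 0 after quantile normalization.

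**Figure D5:**
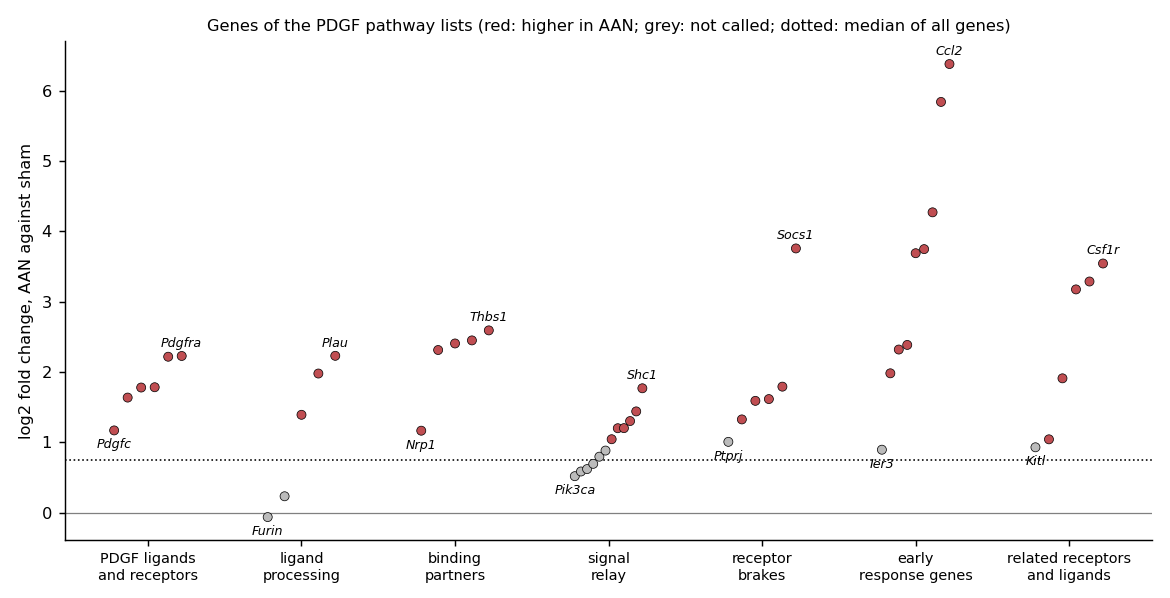
Log2 fold change (AAN against sham) of the 6 PDGF genes and of the 43 genes of the 6 pathway lists, each point 1 gene, red where called higher and grey where not called, with the lowest and highest gene of each list named; the dotted line is the median of all genes (0.75). No gene is called lower, the signal relay list lies nearest to the dotted line and the early response genes reach 6.38 (*Ccl2*).

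Genes most alike each of the 6 were sought among 12240 genes by the root mean square difference over the 10 mice of log2 values centred on each gene's mean, which includes the difference between the groups. For *Pdgfra* the nearest was *Fbn1*, which encodes the matrix protein fibrillin-1 (0.109), followed by *Islr* (0.216) and *Emp2* (0.225). *Pdgfrb* had *Msrb3* (0.136), *Msantd3* (0.169) and *Sept4* (0.175). Among the ligands, *Pdgfb* had *Csrnp1* (0.145), *Rcsd1* (0.158) and *Zc3hav1* (0.159), *Pdgfd* had *Cdc42ep4* (0.119), *Tmx3* (0.133) and *Pspc1* (0.154), and *Pdgfa* had *Cib2* (0.154), *Rbms1* (0.181) and *Actb* (0.190), the gene of β-actin. The profiles thus have near matches, with log2 fold changes between 1.50 (*Tmx3*) and 2.51 (*Emp2*). *Pdgfc* differed: its nearest were *Pigt* (0.165), *Fhod3* (0.168) and *Cyb561a3* (0.181), with log2 fold changes of 0.95, 1.26 and 1.20, and it lay 0.767 to 0.999 from the other 5 members, which were 0.297 to 0.447 from each other. Those 5 were not each other's nearest genes. Among the 12240, their ranks ran from 56 (*Pdgfrb* for *Pdgfra*) to 1572 (*Pdgfra* for *Pdgfd*), so many other genes were closer.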

How the data were processed

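RNA-seq of the kidney cortex of 4 sham and 6 AAN mice was used, grouped by the sample labels. Per the methods of the study, the authors sequenced TruSeq libraries in paired-end mode on a HiSeq Xten, discarded reads of rRNA or adapters and those that were short or of low quality, and aligned what remained with Hisat2 2.0.4 to GRCm38, from which Stringtie 1.3.0 gave the deposited FPKM values of known gene models. Their own differential expression was found with edgeR, whose input is not given in the sources used here. The annotation release is not given in the sources used here. Symbols and positions came from GENCODE mouse release 21, which holds 21650 of 21792 genes.

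Because the deposited values are FPKM, limma 3.58.1 in R 4.3.3 (lmFit, eBayes with trend and robust) was run on log2(FPKM + 0.1) of 17129 genes whose mean reached 0.1 FPKM, with no scaling between mice, two-sided tests and Benjamini-Hochberg adjustment over all genes tested. A gene was called where the adjusted p did not exceed 0.05 and the fold reached 2 or was 0.5 or less, the limits of the study. The script was tested on simulated data. Differences within a mouse used exact permutation tests. The depth came from genes with 1 transcript, where 94.5% to 96.8% of the values under 0.3 FPKM were whole fragments (tolerance 0.05), against 9.55% to 11.6% in genes with several transcripts, so counts of the 6 genes were not recovered.

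The named genes are the 6 members, from each pathway list all called genes where 4 or fewer, else the 2 with the largest rise at a mean of at least 1 FPKM, genes that did not pass with their values only, and the 3 genes most alike each member. The members, the pathway and marker lists and the tests were chosen with earlier results of these data known. Of 44 pathway genes 43 are in the values. The alternatives were other pseudocounts, filters, scalings, limma without trend or robust, no fold limit, leaving out each mouse, and the mice with B tags alone (3 sham and 5 AAN), since the labels give no batch.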

Additional observations from a re-analysis of the deposited data

Results flagged for a closer look

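Among 56 groups of values examined, 2 had 1 mouse far from the rest, where chance gives about 2.8. *Pdgfa* in the AAN mouse B614 was at 2.94 FPKM, against 5.56 to 7.05 FPKM in the other AAN mice. B614 was also the AAN mouse with the lowest *Pdgfb* (27.5 FPKM) and *Pdgfrb* (9.40 FPKM) and the highest *Pdgfc* (3.87 FPKM), and its proximal tubule list lay 0.25 below the sham mean on the log2 scale, a value of -0.25 against -2.35 to -1.66 in the other AAN mice. The part of this in the value of *Pdgfa* was not tested.

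The library of the AAN mouse B639 held the fewest fragments, 13.4 M, while the rest of the AAN libraries held 15.5 to 16.5 M. Without B639 the log2 fold change of *Pdgfc* was 1.31 (adjusted p = 0.0318).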

How the results depend on the processing

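*Pdgfb*, *Pdgfra* and *Pdgfrb* kept their direction and call under all 21 alternatives, with log2 fold changes of 1.46 to 2.58, 1.08 to 2.56 and 1.03 to 2.14. One of these alternatives, no fold limit, uses the main fit and could not remove a call. *Pdgfa* was under the fold limit after quantile normalization (0.84, adjusted p = 0.0207), and so was *Pdgfd* (0.73, adjusted p = 0.00253), also after the median of ratios (0.90, adjusted p = 0.000673). *Pdgfc*, 1.17, lost its call in 11 of 21 alternatives: with a pseudocount of 1 (0.69, adjusted p = 0.0467), with no filter (1.17, adjusted p = 0.0557), after the median of ratios (0.48) and quantile normalization (0.087), with B tags alone (1.32, adjusted p = 0.0698) and, of a range of 0.75 to 1.54 with each mouse left out, in 6 of 10 cases. The members called numbered 3 after quantile normalization.

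Over all genes, the number called higher fell from 6126 to 2909 (pseudocount of 1), 4025 (only genes whose mean reached 1 FPKM, so fewer were tested), 3201 (median of ratios) and 2487 (quantile normalization), and it was 9482 without the fold limit. The number called lower, 588, was 1811 and 2085 under these rescalings, 1027 without the fold limit and 330 with the same total. The pathway genes higher, 32, were 21 after the median of ratios and 19 after quantile normalization. Of the pair differences, 2 passed the limit with a pseudocount of 1 and 2 after quantile normalization, *Pdgfa* minus *Pdgfb* (-0.74 and -0.90) and *Pdgfb* minus *Pdgfd* (0.83 and 1.01), each with an adjusted p of 0.0357.

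*Pdgfa* minus *Pdgfrb*, 0.0043, turned to -0.19 with a pseudocount of 1, -0.20 after quantile normalization and -0.11 with B tags alone, and ranged from -0.12 to 0.11 with each mouse left out. *Pdgfb* minus *Pdgfra*, -0.011, turned to 0.74 and 0.66 with a pseudocount of 1 and after quantile normalization, and ranged from -0.23 to 0.096. *Pdgfra* minus *Pdgfrb*, 0.45, was -0.18 with a pseudocount of 1. Where no cause is given, the cause was not tested. No paired analysis was possible because each mouse is labelled by its own tag alone, none of which occurs in both groups, and the replicate numbers used here are only names. The lowest upper limits of fragments were those of *Pdgfc* (26.2) and *Pdgfa* (63.9) in sham mice.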
